A study of Homo sapiens with 2 samples.

Results

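CXXC5 was the nearest gene of 4 of the 1986 IRF1 binding summits listed for NB4 cells after 4 hours of all-trans retinoic acid (ATRA), and no other summit lay within 200 kb of them. A summit is the single base at which a peak of sequenced fragments from chromatin immunoprecipitation (ChIP-seq) is highest. The CXXC5 summits were chosen by the nearest gene that the authors' list gives, at any distance, together with every summit on chromosome 5 within 200 kb, and the gene was picked with its number of summits in view. Their number, positions and scores are therefore a description and carry no test. One summit stood just upstream of the gene and the other 3 stood together in its first intron.

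NB4 is an established line of acute promyelocytic leukemia that carries the PML-RARA fusion. The study immunoprecipitated IRF1 from NB4 cells given ATRA for 4 hours (1 library) and from control NB4 cells, which per the labels' protocols received the solvent DMSO (1 library). The sources used here give neither the dose of ATRA nor the antibody. Only the list of the ATRA library was used, so no gain or loss at CXXC5 under ATRA was measured, and with 1 library there is no spread between replicates. If the peaks were called against the control library, the absence of a summit at a gene may mean equal binding in both. The read depth behind each summit is unknown. A list of summits holds no expression values, so the identity of the cells could not be checked against marker genes.

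CXXC5 encodes a nuclear protein with a zinc finger of the CXXC type, a domain that in its family binds unmethylated CpG dinucleotides. It is also called RINF, for retinoid-inducible nuclear factor, a name that comes from its induction by retinoids in promyelocytic leukemia cells, and it is known for a part in myeloid maturation. The protein inhibits WNT signalling through Dishevelled, and in mouse plasmacytoid dendritic cells it recruits the demethylating enzyme TET2 to the Irf7 gene. IRF1, the factor assayed here, binds repeats of the letters GAAA in the control regions of interferon-responsive genes.

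The sequence around the upstream CXXC5 summit is shown because it is the one CXXC5 summit that falls inside a promoter window of RefSeq (GRCh38.p14), which runs from 250 bases before to 50 bases after a transcription start. The window lies at chr5:139647049-139647348 on the plus strand, and the summit is its base 76. Capitals mark the single match to AGTTTC, part of the interferon-stimulated response element, at bases 85 to 90 of the window.
CXXC5 window: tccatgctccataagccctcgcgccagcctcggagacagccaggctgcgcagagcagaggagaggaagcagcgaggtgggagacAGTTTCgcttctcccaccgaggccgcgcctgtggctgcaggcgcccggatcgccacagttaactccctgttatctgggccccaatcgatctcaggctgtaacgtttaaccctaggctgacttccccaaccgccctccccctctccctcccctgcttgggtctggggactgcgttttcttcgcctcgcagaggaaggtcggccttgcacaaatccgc

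The upstream summit had the highest score of the 4. It lay at chromosome 5 position 139647124 (hg38, 1-based) with a peak score of 29.4. The peak score is the authors' own value per summit, on a scale that the file headers do not state, and it is used here to order summits within this list. Of all summits, 58.0% scored lower than this one. The list ran from 8.28 to 321 with a median of 25.2, so the upstream summit stood a little above the middle.

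In the first intron, the first of the 3 summits lay at position 139664282 with a score of 15.0, above 13.1% of the list. The second lay at position 139668158 with a score of 12.7, above 5.84% of the list. The third lay at position 139669977 with a score of 21.6, above 40.3% of the list. All 3 were below the list's median, and also below the median of 24.8 for the 698 summits classed as intronic. The median of the 4 CXXC5 scores was 18.3, close to the lower quartile of the list, 17.7, and the highest was 2.31 times the lowest. CXXC5 was thus a gene with several summits of low to middling score, which the plot of scores shows.

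**Figure D1:**
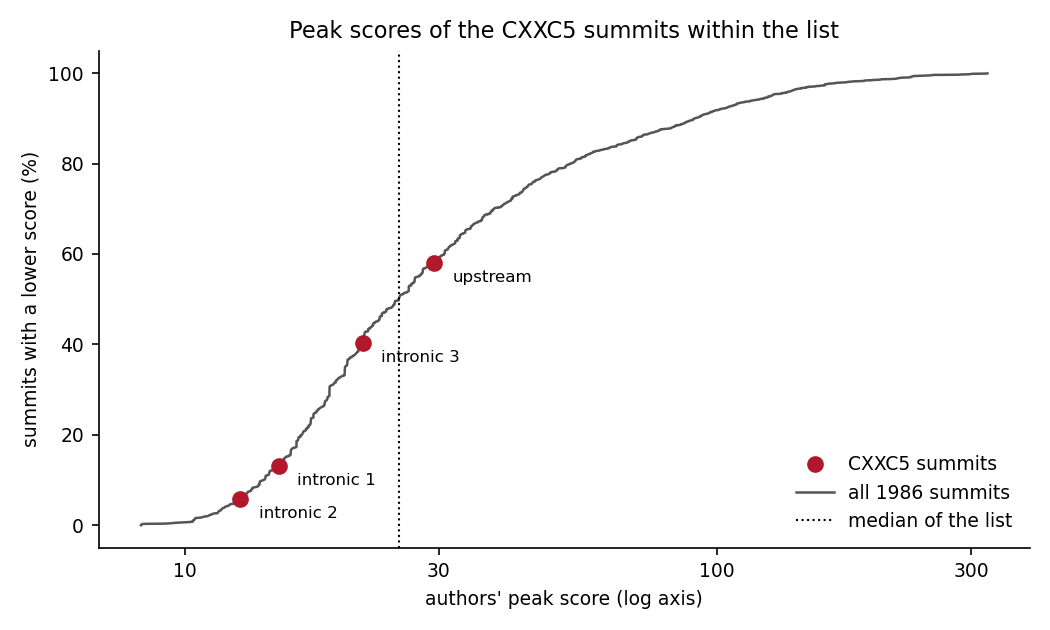
Authors' peak score (horizontal, log axis) against the percentage of the 1986 summits with a lower score (vertical). The line is the whole list, red points are the 4 CXXC5 summits and the dotted line is the median of the list, 25.2. The upstream summit (29.4) is right of the median and the 3 intronic summits (15.0, 12.7 and 21.6) are left of it.

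The authors' annotation and current RefSeq gene models place the upstream summit differently. In the deposited annotation it was intergenic, at -1592 bp from the transcription start site (TSS) of NM_016463. That distance puts the TSS at position 139648716, which is 1417 bp downstream of the first start of CXXC5 in RefSeq. RefSeq gives CXXC5 a span from 139647299 to 139683882 on chromosome 5 (36584 bp) with 7 separate starts. Relative to the first of these, the upstream summit lay at -175 bp, in a promoter. Such a position was infrequent among intergenic summits. Of 484 whose nearest gene had a promoter window, 9 (1.86%) lay within 1 kb of a RefSeq start of that gene. The 484 lay at any distance from that gene, so this is not a share of summits close to a gene. The list held 731 intergenic summits, and those whose nearest gene had no window could not be placed.

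The intronic summits were not at any of the 7 starts. In the authors' annotation they lay at 15566, 19442 and 21261 bp from the TSS, all in intron 1 of 2 of NM_016463. The first was 4727 bp downstream of the sixth RefSeq start. The other two lay at -7285 and -5466 bp from the seventh. The second also fell inside LOC124901084, an uncharacterised long non-coding RNA gene within the CXXC5 intron (139667826 to 139668775). None of the 4 was assigned to a repeat or a CpG island in the authors' detailed annotation. No sequence is printed for these 3, since none falls in a promoter window.

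**Figure D2:**
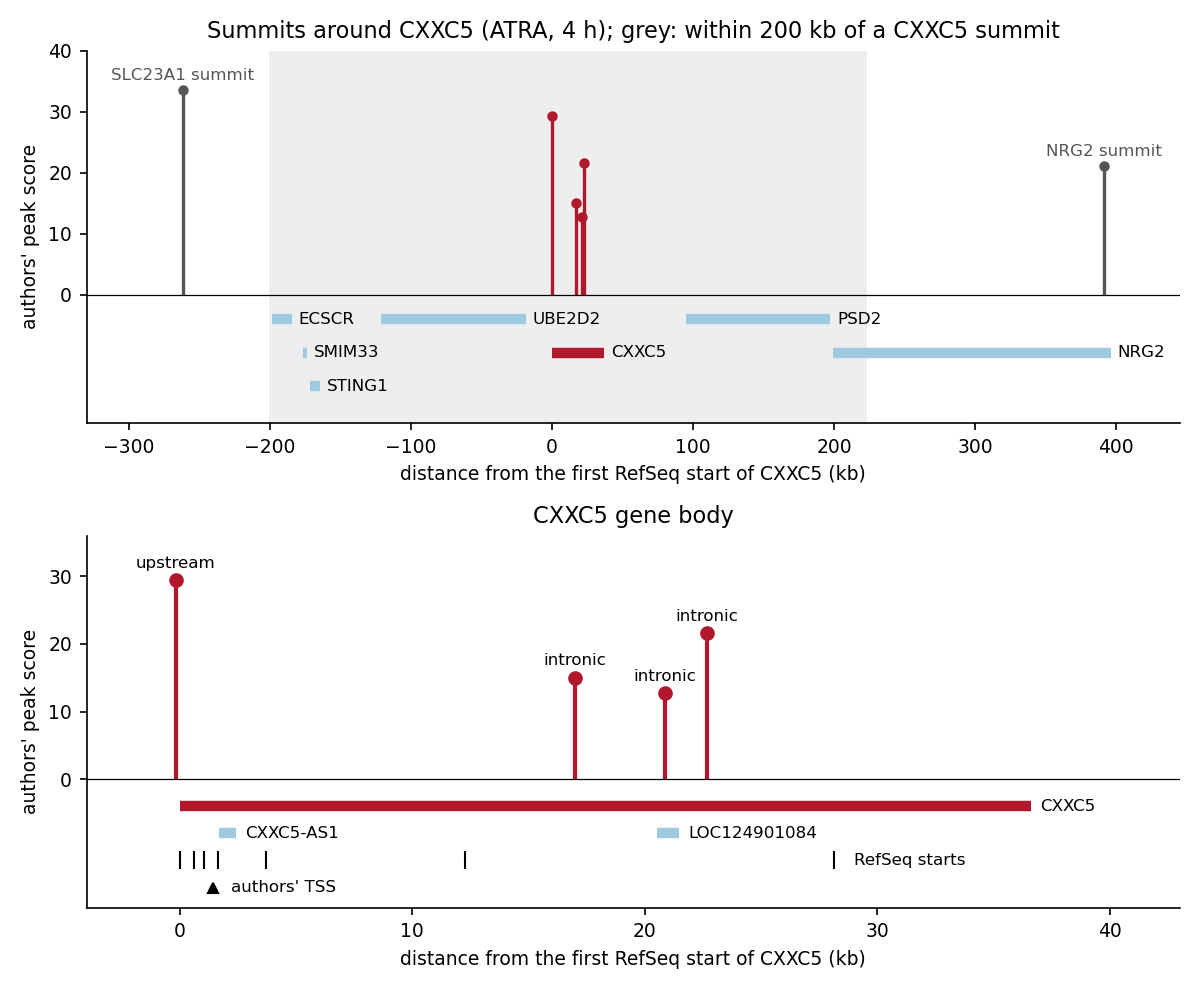
Authors' peak score (vertical) against distance in kb from the first RefSeq start of CXXC5 (horizontal), for the neighbourhood (top) and the gene body (bottom). Bars under the axis are RefSeq gene spans, with protein-coding genes alone in the top panel. Ticks are the 7 RefSeq starts and the triangle is the authors' TSS. The 4 CXXC5 summits, in red, are the only ones in the grey area, and 3 of them fall between 16983 and 22678 bp from the first start.

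The 4 summits spanned 22853 bp, with gaps of 17158, 3876 and 1819 bp between neighbours. The 3 intronic summits alone spanned 5695 bp. By comparison, the median gap between neighbouring summits on chromosome 5 was 867 kb over 115 summits. Outside a dense block of 133 summits on the short arm of chromosome 21, where the nearest genes include ribosomal RNA genes, the median distance of a summit to its nearest neighbour was 277 kb. A distance of at most 1819 bp, that of the last pair of intronic summits, was found for 8.04% of those 1853 summits. A distance of at most 17158 bp, that of the upstream summit, was found for 15.6%. Linked at gaps of up to 20 kb, these 1853 summits gave 1681 groups, of which 1553 held a single summit and 7 held 4 or more. The CXXC5 group was one of the 7, and one of 3 with exactly 4. The 20 kb limit was set after seeing the data and is wider than the 17158 bp gap in CXXC5. A limit below that gap would leave the upstream summit outside the CXXC5 group. The other 2 groups of exactly 4 lay in the TAP2, PSMB8, TAP1 and PSMB9 interval and in the APOBEC3C, APOBEC3D and APOBEC3F interval, each spread over several genes. The CXXC5 group had 1 nearest gene, as had 3 of the 4 larger groups, those of RNU2-1, GRAMD4 and SP2. The best score was 29.4 in the CXXC5 group, against 301 in the TAP2 group and 81.5 in the APOBEC3 group.

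No gene other than CXXC5 was the nearest gene of a summit within the 200 kb limit. RefSeq places 7 protein-coding genes in this neighbourhood of 423 kb, among them UBE2D2, a ubiquitin-conjugating enzyme gene whose span ends 18690 bp from the upstream summit, and STING1, the adaptor of cytosolic DNA sensing, 164366 bp from it. ECSCR, SMIM33, STING1, UBE2D2 and PSD2 were the nearest gene of no summit anywhere in the list. Just outside the limit, the closest summit on the upstream side lay 261852 bp away, at -1922 bp from the TSS of SLC23A1, a vitamin C transporter gene, with a score of 33.6. On the other side, the closest lay 368868 bp away in the first intron of NRG2, which encodes a neuregulin growth factor, with a score of 21.2.

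By number of summits, CXXC5 shared ranks 11 and 12 among the 1644 genes that were the nearest gene of any summit. Of the genes above it, 7 were genes of ribosomal RNA, small nuclear RNA or microRNA. Among 19970 protein-coding genes of RefSeq on the autosomes and chromosome X, 1275 had a summit (6.38%) and 4 had 4 or more (0.02%). Above CXXC5 stood GRAMD4 with 6 summits and RUNX1 and SP2 with 5 each. GRAMD4 encodes a mitochondrial protein linked to cell death, RUNX1 a factor of blood cell formation and SP2 a zinc finger factor.

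These genes differed in how far apart their summits stood. No 2 CXXC5 summits were within 1 kb of each other. The 6 GRAMD4 summits lay within 1531 bp, with scores of 13.0 to 20.6. Of the SP2 summits, scored 23.9 to 30.8, 3 lay around its TSS, at -169, 78 and 362 bp. The RUNX1 summits covered 99681 bp, with scores of 13.0 to 85.1. When summits under 1 kb apart were merged, CXXC5 kept its 4 and stood second among protein-coding genes, behind RUNX1 with 5.

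**Figure D3:**
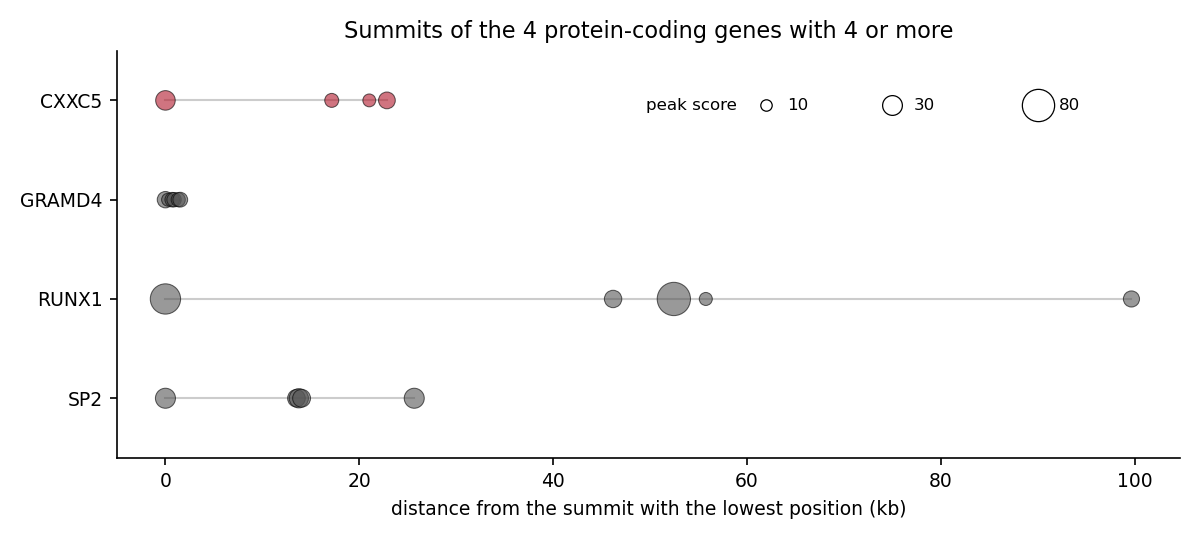
Distance in kb from each gene's summit with the lowest position (horizontal) for CXXC5 (top row, red), GRAMD4, RUNX1 and SP2 (grey), the 4 protein-coding genes with 4 or more summits. Each circle is a summit and its area is proportional to the authors' peak score. The CXXC5 summits cover 22853 bp, those of GRAMD4 1531 bp and those of RUNX1 99681 bp.

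Counted by position inside the gene, CXXC5 held 3 summits in its RefSeq span, the upstream one being just outside. In all, 825 protein-coding genes held a summit in their span, and 15 held 3 or more (0.0751% of protein-coding genes). By count, 4 of the 15 held 4 or more and so stood above CXXC5, with RUNX1 highest at 7. The median length of these 15 genes was 163056 bp, whereas CXXC5 is 36584 bp long. With 8.20 summits per 100 kb of span CXXC5 stood at rank 3 of the 15, after FMNL1 with 11.8 and CALCOCO2 with 8.77. At an equal count a shorter gene has more summits per 100 kb. Genes outside the 15 were left out of this rank, so it is not a rank among the 825. FMNL1 is a formin gene of blood cells and CALCOCO2 encodes an autophagy receptor. Of 617 introns with a summit, 8 held 3 or more, of which 5 were on chromosome 21. The remaining 3 were the first introns of CXXC5, FMNL1 and ZNF710 (a zinc finger gene), with median scores of 15.0, 20.0 and 22.5.

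No other protein-coding gene had exactly 4 summits, so the rule that was to name the genes most like CXXC5 took none. The genes that follow were chosen after their values were seen. Among the 16 protein-coding genes with 3 summits, the closest median score to the 18.3 of CXXC5 was that of LY6E (17.5), an interferon-responsive gene. The LY6E scores ran from 10.7 to 196 within 2339 bp, so LY6E was alike in median only. The highest CXXC5 score was 29.4. PDE4B, a cyclic AMP phosphodiesterase gene, followed with a median of 17.2 and scores from 13.8 to 23.5.

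The letters known to bind IRF factors were less complete at CXXC5 than at many promoters with a summit. The motif searched was a pair of GAAA copies with 2 free bases between them, on both strands. It can overlap AGTTTC, whose reverse strand holds GAAA. An exact pair was found in 117 of 302 RefSeq promoter windows that held a summit (38.7%), and in 3.57% of all 35116 windows. Windows of alternative starts overlap, so the 302 windows held 255 summits. None of the 7 CXXC5 windows had an exact pair. The closest match, with 1 mismatch, was in the window at start 2, which held no summit. In the window with the summit the best match had 2 mismatches, and 82.6% of all windows had a match at least as close. It lay on the minus strand at 139647135 to 139647144, with its middle 15.5 bp downstream of the summit, and reads AGAAGCGAAA on that strand. A second match with 2 mismatches lay 180.5 bp downstream of the summit.

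Scores were lower where the match was poorer. The median score was 49.2 for the 98 summits in a window with an exact pair, 21.5 for the 82 whose closest match had 1 mismatch, 18.7 for the 62 with 2, and 15.9 for the 13 with 3. The CXXC5 summit, at 29.4, was higher than 50 of the 62 with 2 mismatches.

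**Figure D4:**
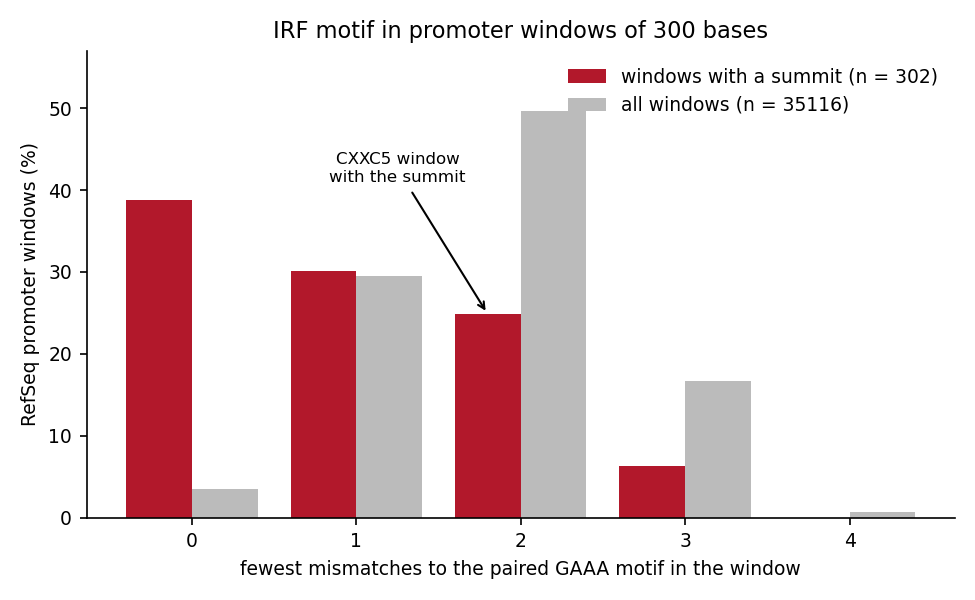
Percentage of RefSeq promoter windows (vertical) by the fewest mismatches to the paired GAAA motif on either strand (horizontal), for the 302 windows with a summit (red) and all 35116 windows (grey). An exact pair is in 38.7% of windows with a summit and in 3.57% of all. The arrow marks the class of the CXXC5 window, with 2 mismatches.

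The other motifs searched gave 1 match in this window. AGTTTC was found on the plus strand at 139647133 to 139647138, with its middle 11.5 bp downstream of the summit. This match shares bases with the GAAA pair with 2 mismatches at 139647135 to 139647144, so they are not separate sites. AGTTTC occurred in 30.8% of windows with a summit and in 14.8% of all windows. AGGTCA and GGGTCA, the hexamers bound by retinoic acid receptors, were not in the window. AGGTCA was found in 11.6% of windows with a summit and in 13.8% of all, and GGGTCA in 12.9% and 14.1%. Of the 7 CXXC5 windows, 3 held AGTTTC, and the one at the seventh start, without a summit, held AGGTCA. No match says only that these letters are not in these windows.

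The CXXC5 windows also varied in CpG content, the feature that proteins of the CXXC family bind. The window with the summit held 20 CpG dinucleotides, against a median of 14 over all windows, and had a GC content of 63%. Of all windows, 58.8% held fewer CpG dinucleotides, so this one was not far above the middle. The windows at starts 3 and 4 held 37 and 39 CpG dinucleotides, and those at starts 6 and 7 held 2 each.

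Of the genes in the lists described further on that had a promoter window in the RefSeq table used here, 3 had a summit inside such a window of their own, and their sequences are set side by side to show how the CXXC5 site compares. These are CXXC5, IRF5 and MYD88. Left out for want of a window in that table are IRF7, PLAAT4 and USP18, with summits 27, 32 and 107 bp from the authors' TSS. Their scores were 45.7, 47.1 and 212, so the comparison misses listed promoter summits with higher scores. Each line gives 81 bases of the plus strand centred on the summit, and capitals mark the closest match to the GAAA pair on either strand. The regions are chr5:139647084-139647164, chr7:128940599-128940679 and chr3:38138587-38138667 (GRCh38.p14, RefSeq).
CXXC5: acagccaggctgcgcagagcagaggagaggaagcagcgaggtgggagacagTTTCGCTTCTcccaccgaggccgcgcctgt
IRF5: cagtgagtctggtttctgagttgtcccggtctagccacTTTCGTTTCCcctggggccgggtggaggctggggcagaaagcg
MYD88: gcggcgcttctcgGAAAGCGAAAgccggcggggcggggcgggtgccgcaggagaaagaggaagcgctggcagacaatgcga

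CXXC5 had 2 mismatches and a score of 29.4. IRF5, a factor of the same family as IRF1, had 1 mismatch and a score of 44.0. MYD88, the adaptor of Toll-like receptors, had an exact pair and a score of 26.2, so among these 3 summits the score did not follow the number of mismatches. The CXXC5 summit lay farthest from its start, at -175 bp, against -31 bp for IRF5 and -34 bp for MYD88.

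Of the 12 other genes of the CXXC family, 1 was the nearest gene of a summit at any distance (8.33%, against 6.38% of all protein-coding genes), a share near the background. This was KDM2A, a histone demethylase gene, whose single summit lay at -49631 bp with a score of 24.5. CXXC4, the closest relative of CXXC5, the methylcytosine oxidases TET1, TET2 and TET3, the DNA methyltransferase DNMT1 and the methyltransferases KMT2A and KMT2B had none. Within 10 kb of the TSS none of the 12 had a summit, and the share over all protein-coding genes was 3.37%, so a list of this size says little.

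In the list around IRF7 and MYD88, 3 of 13 genes had a summit, IRF7, MYD88 and IRF5, each within 10 kb of the TSS. That is 23.1% of the list, against 6.38% of all protein-coding genes at any distance and 3.37% within 10 kb. This list, like the other lists, was chosen with earlier results of these data known, so its shares and scores are a description and were not tested. IRF7, the factor whose gene CXXC5 acts on in the mouse, scored 45.7, with its summit 27 bp downstream of the TSS. The median of the highest score per gene was 44.0 in this list, against 27.7 over the 1275 protein-coding genes with a summit. The receptors TLR7 and TLR9 and the kinases IRAK1 and IRAK4 had none.

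In the WNT signalling list, 3 of 20 genes had a summit (15.0%, against 6.38% of all protein-coding genes). None had one within 10 kb, where the share over all protein-coding genes was 3.37%, so a count of 0 among 20 genes is near the background. GSK3B, a kinase of the complex that degrades beta-catenin, had a score of 18.7 at 60639 bp. The co-receptor gene LRP5 had 19.2 at 68963 bp, and the receptor gene FZD1 had 14.2 at -213538 bp. The median of their highest scores was 18.7. The Dishevelled genes DVL1, DVL2 and DVL3, whose products CXXC5 is known to bind or act through, had none.

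In the retinoid response list, which leaves CXXC5 out, 7 of 30 genes had a summit (23.3%, against 6.38% of all protein-coding genes) and 6 had one within 10 kb (20.0%, against 3.37%). Because the list was drawn up with earlier results of these data known, these shares are a description and no enrichment was tested. The genes with a summit are named next. The 7 genes were USP18 (a protease that removes ISG15), ASB2, PLAAT4 (a phospholipase-like acyltransferase), RXRA (the partner receptor of the retinoic acid receptors), ICAM1 (an adhesion molecule), TNFAIP2 and DHRS9. DHRS9, a retinol dehydrogenase gene, had a score of 20.2 at 14657 bp. The highest CXXC5 score, 29.4, was below the median of their highest scores, 44.8. CXXC5 had 4 summits, and none of the 7 had more than 2. ASB2, a ubiquitin ligase subunit, like CXXC5 had a summit in a first intron, but a single one, with a score of 124 at 5567 bp.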

How the data were processed

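Per the file headers, the authors annotated the summits of the ATRA library with HOMER's annotatePeaks.pl on hg38. The submitters' processing notes name Bowtie2 2.2.9 and MACS 1.4.2. The sources used here do not give the background and threshold of peak calling. The deposited peak score has no stated scale, and the deposited distance is signed, negative upstream of the TSS.

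From this list, 1 library per group, CXXC5 summits were taken by gene name and counts per gene by Entrez identifier. Gene spans, starts and promoter windows came from RefSeq GRCh38.p14, and motifs were matched as exact letters on both strands. The matching was tested on simulated data. The members and lists were chosen with earlier results of these data known. Named genes are CXXC5, its neighbours, protein-coding genes with more summits, genes alike in number and median score, and list members with a summit. Motifs around the intronic summits were not analysed here. Comparisons by span, intron and 20 kb groups were added after seeing the data. No tests were run. Python 3.11.15 and pandas 2.3.3 were used.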

Additional observations from a re-analysis of the deposited data

How the results depend on the processing

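No paired analysis was possible because there was 1 library a group, and for the same reason no replicate could be left out. CXXC5 had 4 summits when the distance was limited to 100 kb, when summits under 200 bp or 1 kb apart were merged, and in the RefSeq span extended by 10 kb. It had 1 within 10 kb of the TSS and 1 among the 993 summits with the highest scores, where the count within 200 kb was also 1. Within 500 kb the count was 6. The rank by number of summits, 11 among all genes, was 4 among protein-coding genes, 5 without the dense block of chromosome 21, 7 with summits under 1 kb apart merged, 2 with that merging among protein-coding genes, 75 within 10 kb and 64 among the 993 highest, where CXXC5 tied with every gene of 1 summit. The median score was recomputed only within 100 kb and with summits under 1 kb apart merged. Both settings kept the same 4 summits, so it could not change. The motif count around the upstream summit was 1, and 3 with 2 mismatches allowed in the IRF pair, where AGTTTC and 1 of the pairs overlap. Of the 76 listed genes, 15 had a summit, 10 within 10 kb and 9 among the 993 highest. The merging among protein-coding genes and the allowance of 2 mismatches were chosen after seeing the data. Read depth is unknown, so a gene without a summit is not shown to be unbound.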
